A study of Homo sapiens with 9 samples.

Results

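The A-kinase anchoring proteins AKAP1, AKAP2, AKAP8, AKAP9, AKAP10, AKAP11, AKAP12 and AKAP13 were examined in RNA-seq of SKOV3 cells, an ovarian cancer cell line. The members were the rows whose gene symbol is one of these 8 names, out of 58735 genes in the count table, and all 8 were among the 16350 genes with enough counts to be tested. AKAP12 was chosen by its counts in these libraries, since an earlier analysis of them had called it higher in both comparisons with control cells, and the other 7 were added as members of its family. Its differences from the control cells are therefore given as a description, with no test.

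The study asked how phosphorylation of CDK9 on Tyr19, by the receptor tyrosine kinase ALK, bears on transcription. Stable SKOV3 cells expressing wild-type (WT) CDK9 were left under basal conditions or treated for 24 h with an ALK inhibitor, and a line expressing Tyr19Phe CDK9, in which the phosphorylated tyrosine is replaced by phenylalanine, was kept under basal conditions. There were 3 libraries in each of these 3 groups. The labels name neither the inhibitor nor its dose, and the sources used here do not say whether these cells still made their own CDK9, nor whether a line was 1 clone. Elsewhere the study put WT or Tyr19Phe CDK9 back into SKOV3 cells depleted of CDK9. Whether the RNA-seq used such lines is not said. Nothing says that the 3 libraries of a group came from separate cultures, so p-values measure only the spread between these libraries.

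Library totals lay between 18169050 and 20974903 counts in the WT CDK9 and inhibitor libraries and between 26485891 and 29320184 in the Tyr19Phe CDK9 libraries, so that 3 counts, taken as the floor of detection, were worth 0.102 to 0.165 CPM (counts scaled to a common library size). ALK inhibitor replicate 2 stood apart in a principal component analysis and had the fewest genes detected, 19944 against 21911 and 21915 in its group. Tyr19Phe CDK9 replicate 3 had fewer genes detected than its group, 20635 against 22609 and 22744, and lay further out on the first component. WT CDK9 replicate 3 lay apart on the third component. CDK9 itself, which the counts cannot split into native and introduced transcripts, was 48.6 ± 1.03 CPM in WT CDK9 cells, 45.6 ± 1.77 CPM with the inhibitor and 55.0 ± 3.94 CPM in Tyr19Phe CDK9 cells (SD, n = 3 each). ALK had 0 to 5 counts per library and was not tested. All 6 epithelial markers were present, with a summed level of 4906 to 5718 CPM over the libraries, but they did not move together. In Tyr19Phe CDK9 cells KRT19 (log2 difference -1.24), EPCAM (-0.82) and ERBB2 (-0.29) were called lower than in WT CDK9 cells and KRT8 (0.38) and KRT18 (0.39) higher, and with the inhibitor ERBB2 (0.54) and KRT19 (0.21) were called higher and KRT7 (-0.35) lower. None of 4 leukocyte markers reached 1 CPM. The 4 endothelial markers summed to 0.975 to 2.62 CPM in WT CDK9 cells, 1.29 to 1.95 CPM with the inhibitor and 3.28 to 4.34 CPM in Tyr19Phe CDK9 cells, with KDR and CDH5 passing 1 CPM, and CDH5 going from 0 counts in all WT CDK9 libraries to 14 to 35 counts in Tyr19Phe CDK9 libraries. Of 5 fibroblast markers only COL1A1 passed 1 CPM, and the summed level of the list was 103 to 107 CPM in WT CDK9 cells, 115 to 149 CPM with the inhibitor and 31.0 to 45.4 CPM in Tyr19Phe CDK9 cells. The part of these shifts in the results below was not tested.

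A-kinase anchoring proteins are scaffolds that hold protein kinase A (PKA) at a particular place in the cell. Each carries an amphipathic helix that docks on the regulatory subunits of PKA, and most also bind phosphatases, phosphodiesterases, other kinases or receptors, so that cAMP signals act on nearby substrates. AKAP12, also called gravin or SSeCKS, works beneath the plasma membrane, where it binds PKA, protein kinase C and calcineurin, and it is known as a gene that is often silenced in tumours.

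Sequences upstream of AKAP12 and AKAP11, the members on which the comparisons turn, are shown first, since CDK9 acts on transcription. They come from the RefSeq promoter table on GRCh38.p14, hold the 250 bases before an annotated start on the plus strand, and are written 5′ to 3′ with every E-box hexamer CACGTG in capitals. AKAP12 has 3 such starts. The first, at chr6:151239717-151239966, precedes a start 32 bases before the gene start in the count table and overlaps no annotated transcript. The second, at chr6:151325281-151325530, lies in an intron of 2 longer AKAP12 transcripts, upstream of an internal start. AKAP11 has 1, at chr13:42271902-42272151.
AKAP12 first start: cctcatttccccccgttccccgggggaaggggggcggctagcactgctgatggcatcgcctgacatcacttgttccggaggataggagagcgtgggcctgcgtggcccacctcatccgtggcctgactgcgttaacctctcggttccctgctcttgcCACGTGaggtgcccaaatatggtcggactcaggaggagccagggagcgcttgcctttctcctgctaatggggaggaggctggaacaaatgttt
AKAP12 second start: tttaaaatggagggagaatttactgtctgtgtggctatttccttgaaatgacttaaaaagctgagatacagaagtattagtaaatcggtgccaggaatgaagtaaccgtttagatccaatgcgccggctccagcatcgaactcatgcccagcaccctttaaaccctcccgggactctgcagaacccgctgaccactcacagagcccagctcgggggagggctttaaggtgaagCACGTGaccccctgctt
AKAP11 start: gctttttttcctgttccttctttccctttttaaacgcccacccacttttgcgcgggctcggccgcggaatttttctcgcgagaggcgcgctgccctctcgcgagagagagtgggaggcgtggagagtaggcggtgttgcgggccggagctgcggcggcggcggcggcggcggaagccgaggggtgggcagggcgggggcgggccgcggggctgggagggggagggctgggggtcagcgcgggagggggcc

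The third AKAP12 start, with its window at chr6:151341456-151341705, is further inside the gene, and the last 20 bases of that window belong to an annotated exon and untranslated region. All 3 AKAP12 windows held CACGTG, whereas the AKAP11 window held none. Over the 16 windows of the 8 members, 4 held the hexamer, the other being that of AKAP10, against 6.34% of all 35116 windows in the table. The E-box was put in capitals after 7 motifs had been searched, because it was the one found in all 3 AKAP12 windows, so this is a description. The 3 windows taken for AKAP2 are listed under the read-through locus PALM2AKAP2, of which 2 belong to starts 407811 and 268400 bases before the AKAP2 start in the count table, and held no E-box. The hexamer reads the same on both strands. The full cAMP response element TGACGTCA was in 0 of the 16 windows and in 1.65% of all windows, and its 5-letter core TGACG, on either strand and contained in the longer motif, was in 7 of 16, none of them AKAP12 and 2 of them of the PALM2AKAP2 locus, and in 21.2% of all. The other motifs were also searched on both strands. The GC box, with the letters GGGCGG, was in 11 of the 16 windows, of which 2 were of AKAP12, and in 42.6% of all. The TEAD hexamer GGAATG was in 3 of the 16 windows, of which 1 was of AKAP12, and in 11.9% of all. The TATA hexamer TATAAA was in 2 windows, neither of AKAP12, and in 10.7% of all. The AP-1 heptamer TGACTCA was in 0 windows of the members and in 4.20% of all windows. The AKAP1 windows at chr17:57085506-57085755 and chr17:57085654-57085903 overlap. Matches in their shared bases, among them the same TGACG site and GC boxes, were counted in both windows. A match describes these letters only. Counts per gene cannot say which of the AKAP12 starts was used in these cells.

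AKAP12 was the most abundant of the 8 transcripts per unit length in every library. To compare genes, CPM was divided by the gene length in the count table. That length is given per gene, whichever transcripts were expressed, so the order of the genes is approximate. AKAP12 was at 21.1 ± 0.74 CPM per kilobase in WT CDK9 cells, at 30.0 ± 1.28 with the inhibitor and at 27.5 ± 0.21 in Tyr19Phe CDK9 cells (SD, n = 3 each). AKAP1, which anchors PKA on the outer mitochondrial membrane, came next with 12.9 ± 1.24 CPM per kilobase in WT CDK9 cells, followed by AKAP8, a nuclear protein associated with chromatin, with 10.7 ± 0.23. Their ranges did not overlap in WT CDK9 cells, but did in both other groups, where their order cannot be told from the spread. AKAP11, which also binds protein phosphatase 1 and GSK3, came after these with 7.45 ± 0.75, and AKAP10, which binds both types of regulatory subunit, followed with 4.19 ± 0.52. AKAP9, the large scaffold of the centrosome and Golgi, and AKAP13, a guanine nucleotide exchange factor for small GTPases, were at 2.53 ± 0.16 and 2.41 ± 0.05 CPM per kilobase and overlapped in all 3 groups. AKAP2, a scaffold of the actin cytoskeleton, was lowest with 0.15 ± 0.11 CPM per kilobase. Its whole span lies in the read-through gene PALM2-AKAP2 on the same strand, so that its counts are uncertain.

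**Figure D1:**
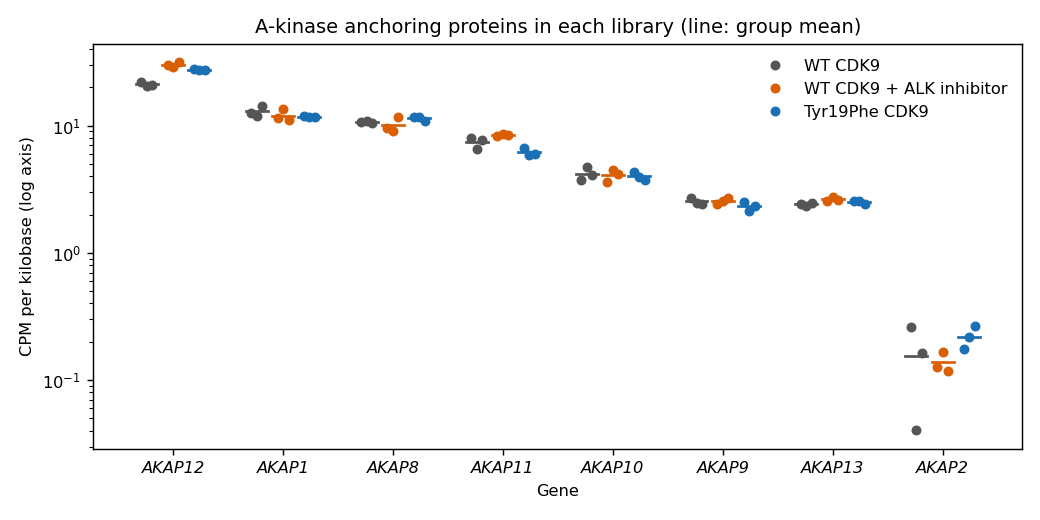
Level of the 8 A-kinase anchoring proteins in each of the 9 libraries, in CPM per kilobase of gene length on a log axis, with 1 point per library and a line at each group mean. AKAP12 lies above the other 7 genes in every library, and its WT CDK9 points lie below those of both other groups.

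Treatment with the ALK inhibitor went with a higher AKAP12 level. AKAP12 (ENSG00000131016, chromosome 6, 151239999 to 151358557, plus strand) had 191, 178 and 184 CPM in the WT CDK9 libraries, from counts of 3727, 3381 and 3438. With the inhibitor it had 261, 252 and 274 CPM, from counts of 5501, 4589 and 5307. All 3 inhibitor libraries were higher than all 3 WT CDK9 libraries. The level was 1.42-fold that of WT CDK9 cells, a log2 difference of 0.51 with a standard error of 0.05. Among the 830 tested genes at or above its own abundance, AKAP12 had the 2nd highest log2 difference, and among all 16350 it ranked 969th. AKAP12 was chosen for being higher in this comparison, so these ranks only describe it and lend it no support.

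The other 7 anchoring proteins did not pass the test with the inhibitor. By edgeR's quasi-likelihood test with Benjamini-Hochberg adjustment over all tested genes, 0 of 7 were called, while 4.55% of all tested genes were called in either direction. At an unadjusted p under 0.05 there was 1, AKAP11, and DESeq2 called 0. AKAP11 (ENSG00000023516, chromosome 13, 42272153 to 42323267, plus strand) had 79.6, 65.5 and 76.7 CPM in WT CDK9 cells and 81.5, 85.5 and 84.0 CPM with the inhibitor. The groups did not overlap, as for 19.6% of all tested genes, but the log2 difference of 0.18 (SE 0.07) had an edgeR adjusted p of 0.206. AKAP13 (ENSG00000170776, chromosome 15, 85380571 to 85749358, plus strand) was 48.8 ± 1.08 CPM in WT CDK9 cells and 53.4 ± 2.00 CPM with the inhibitor (SD, n = 3 each). Its inhibitor libraries were also all above the WT CDK9 libraries, with a log2 difference of 0.13 (SE 0.07, edgeR adjusted p = 0.447). The remaining 5 members had log2 differences between -0.17 for AKAP2 and 0.02 for AKAP9. The median over the 7 members was -0.05, beside 0.00 over all tested genes.

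Tyr19Phe CDK9 cells also held more AKAP12 transcript than WT CDK9 cells, and less AKAP11. This comparison uses the same 3 WT CDK9 libraries as the one with the inhibitor, so the comparisons are not independent. AKAP12 had 242, 239 and 240 CPM in the Tyr19Phe CDK9 libraries, from counts of 7161, 6714 and 6352, all above the 178 to 191 CPM of the WT CDK9 libraries. The level was 1.30-fold that of WT CDK9 cells, a log2 difference of 0.38 (SE 0.04). Here AKAP12 had the 8th highest log2 difference among the 830 genes at or above its abundance, and ranked 2023rd among all tested genes. These ranks too are a description, since AKAP12 was chosen for this difference.

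AKAP11 had 66.3, 58.6 and 59.8 CPM in the Tyr19Phe CDK9 libraries, against 65.5 to 79.6 CPM in the WT CDK9 libraries. The groups overlapped, since the lowest WT CDK9 library lay just under the highest Tyr19Phe CDK9 library. The level was 0.833-fold that of WT CDK9 cells, and its log2 difference of -0.26 (SE 0.07) passed edgeR's quasi-likelihood test with Benjamini-Hochberg adjustment (adjusted p = 0.0086). The call was lost in the edgeR fit when WT CDK9 replicate 1 (-0.20, adjusted p = 0.105), WT CDK9 replicate 3 (-0.23, adjusted p = 0.0528) or Tyr19Phe CDK9 replicate 2 (-0.22, adjusted p = 0.0615) was left out. It was the 1 member of 7 called, in the lower direction, in a comparison in which 10.4% of all tested genes were called lower and 7.61% higher, 18.0% in all.

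The other members showed no call between Tyr19Phe CDK9 and WT CDK9 cells. AKAP1 (ENSG00000121057, chromosome 17, 57085092 to 57121349, plus strand) had 67.7, 64.2 and 77.1 CPM in WT CDK9 cells and 64.2, 63.0 and 63.3 CPM in Tyr19Phe CDK9 cells. The Tyr19Phe CDK9 libraries were all lower by a narrow margin, and groups that did not overlap were found for 32.6% of all tested genes. Its log2 difference was -0.13 (SE 0.08, edgeR adjusted p = 0.26). AKAP8 (ENSG00000105127, chromosome 19, 15353385 to 15379798, minus strand) was 46.0 ± 1.01 CPM in WT CDK9 cells and 49.2 ± 2.05 CPM in Tyr19Phe CDK9 cells (SD, n = 3 each), a log2 difference of 0.10. AKAP9 (ENSG00000127914, chromosome 7, 91940867 to 92110673, plus strand) was 46.2 ± 2.95 and 42.4 ± 3.51 CPM in the same groups, a log2 difference of -0.12. AKAP10 (ENSG00000108599, chromosome 17, 19904302 to 19978343, minus strand) stayed between 17.3 and 23.1 CPM over the 9 libraries, with a log2 difference of -0.07. AKAP13 differed by 0.06. AKAP2 (ENSG00000241978, chromosome 9, 110048598 to 110172512, plus strand) had 6 to 40 counts in the WT CDK9 libraries and 41 to 55 in the Tyr19Phe CDK9 libraries, and its log2 difference of 0.50 had a standard error of 0.51. The median over the 7 members was -0.07.

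**Figure D2:**
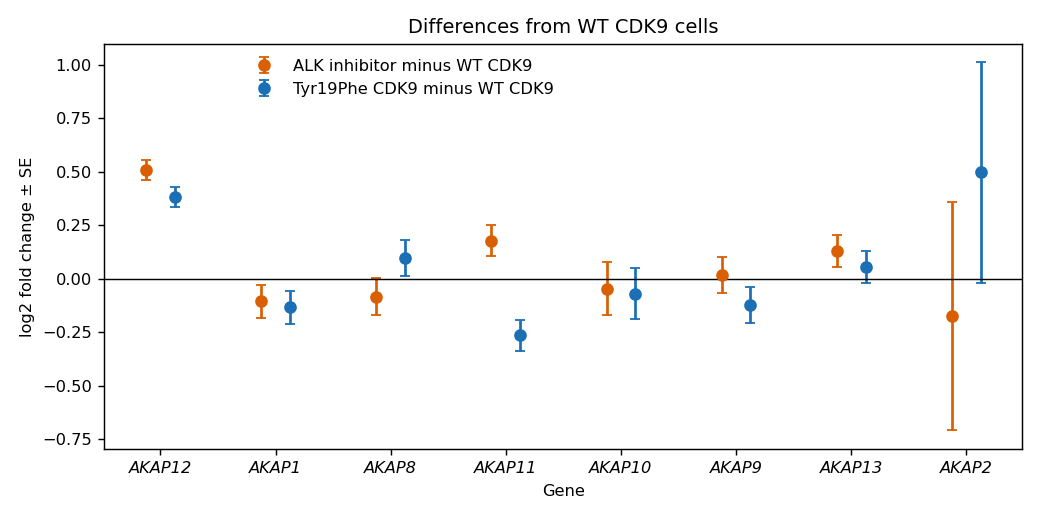
Fitted log2 fold change of each member from WT CDK9 cells, with bars of 1 standard error, for the ALK inhibitor (orange) and Tyr19Phe CDK9 (blue), 3 libraries per group. AKAP12 is above 0 in both comparisons (0.51 and 0.38), AKAP11 lies on opposite sides (0.18 and -0.26), and the bars of AKAP2 are the widest.

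Setting Tyr19Phe CDK9 cells directly against inhibitor-treated WT CDK9 cells tests whether the members differed between the 2 ways of perturbing the kinase cascade, without the WT CDK9 control. AKAP11 was lower in Tyr19Phe CDK9 cells than with the inhibitor. Its 58.6 to 66.3 CPM lay below all 3 inhibitor libraries at 81.5 to 85.5 CPM, a 0.736-fold level and a log2 difference of -0.44 (SE 0.07), with an adjusted p of 2.1e-05 by edgeR's quasi-likelihood test with Benjamini-Hochberg adjustment. The call was kept without any 1 of the 6 libraries, with log2 differences between -0.50 and -0.41. AKAP12 was also lower in Tyr19Phe CDK9 cells, at 239 to 242 CPM against 252 to 274 CPM, without overlap. Its log2 difference was -0.13 (SE 0.04, edgeR adjusted p = 0.039). That call was lost in the edgeR fit without ALK inhibitor replicate 1 (-0.13, adjusted p = 0.0837) or replicate 3 (-0.09, adjusted p = 0.224), or without Tyr19Phe CDK9 replicate 1 (-0.13, adjusted p = 0.0596), replicate 2 (-0.12, adjusted p = 0.105) or replicate 3 (-0.12, adjusted p = 0.11). These were 2 of 8 members called, both lower, beside 11.1% of all tested genes called lower and 9.57% called higher, 20.7% in all. The CPM of the groups did not overlap for 4 of the 8 members, AKAP2 and AKAP13 besides these, and for 34.4% of all tested genes. AKAP8 had 41.4, 38.8 and 49.9 CPM with the inhibitor and 50.4, 50.5 and 46.9 CPM in Tyr19Phe CDK9 cells, and its log2 difference of 0.18 (SE 0.08, edgeR adjusted p = 0.134) was called only without ALK inhibitor replicate 3 (0.30, edgeR adjusted p = 0.0213). The other 5 members had edgeR adjusted p-values between 0.259 and 0.925.

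AKAP12 made up a larger share of the family in both perturbed groups. Of the summed CPM per kilobase of the 8 genes it took 34.3% ± 0.77 in WT CDK9 cells, 42.9% ± 1.46 with the inhibitor and 41.7% ± 0.63 in Tyr19Phe CDK9 cells (SD, n = 3 each). The sum of the other 7 was 40.4 ± 1.31, 39.9 ± 1.63 and 38.5 ± 1.25 CPM per kilobase in the same order. The share follows from the AKAP12 levels already given and is no separate result.

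The genes around AKAP12 scattered about 0. Over the 42 tested genes whose start lay within 5 Mb of the AKAP12 start, the median log2 difference was 0.00 with the inhibitor and 0.02 in Tyr19Phe CDK9 cells. By edgeR 0 of the 42 were called with the inhibitor, and 1 was called higher and 2 lower in Tyr19Phe CDK9 cells. Around AKAP11 the median was -0.01 over 41 neighbours in both comparisons with WT CDK9.

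**Figure D3:**
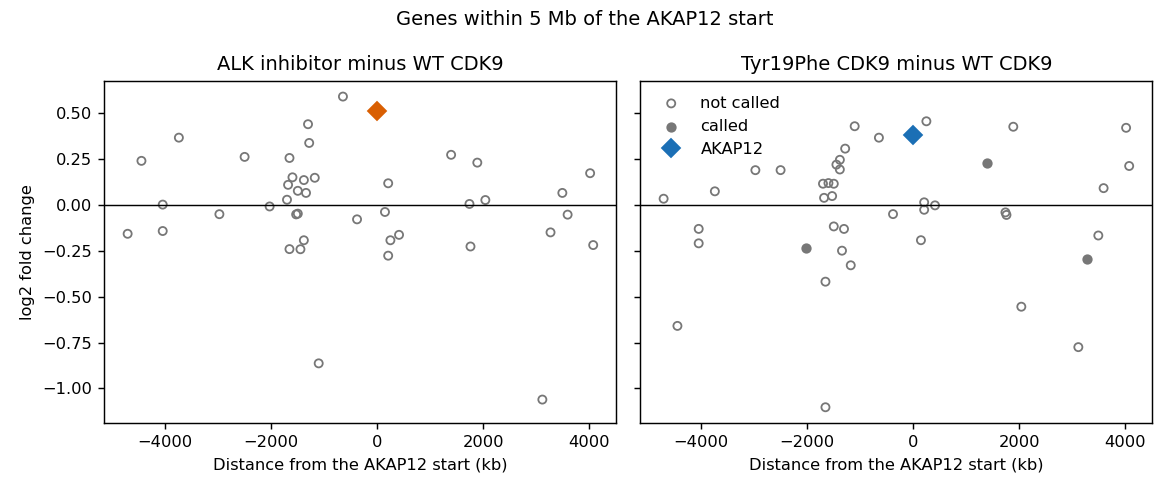
Fitted log2 fold change from WT CDK9 cells of the 42 tested genes within 5 Mb of the AKAP12 start, against the distance of their start in kilobases, for the ALK inhibitor (left) and Tyr19Phe CDK9 (right). Filled points passed edgeR's test at an adjusted p under 0.05; AKAP12, shown as a diamond without a test, lies at 0.51 and 0.38, while the neighbours scatter about 0.

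The genes whose log2 CPM followed AKAP12 most closely over the 9 libraries were SLC26A2, a sulfate transporter (Pearson r = 0.970), NREP (0.962), ANPEP, the membrane aminopeptidase N (0.961), SERINC3 (0.956) and ARHGEF2, a microtubule-bound guanine nucleotide exchange factor (0.953). The 9 points fall into 3 groups and these genes were picked for their likeness, so the coefficients are a description. ANPEP was at 113 ± 2.14, 219 ± 10.8 and 214 ± 6.43 CPM in WT CDK9, inhibitor and Tyr19Phe CDK9 cells (SD, n = 3 each), and ARHGEF2 at 44.6 ± 2.08, 58.1 ± 0.53 and 52.2 ± 1.26 CPM. Within the family AKAP13 was the most like AKAP12 (r = 0.725, 474th of all tested genes) and AKAP1 the least (r = -0.519).

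Among the subunits of the kinase that these scaffolds anchor, none of the catalytic ones was called against WT CDK9 cells. The catalytic subunit PRKACA was 109 ± 3.52 CPM in WT CDK9 cells, 106 ± 3.18 CPM with the inhibitor and 108 ± 5.23 CPM in Tyr19Phe CDK9 cells (SD, n = 3 each). PRKACB, the other main catalytic subunit, was 52.9 ± 3.85, 54.0 ± 3.72 and 46.0 ± 1.03 CPM, and PRKACG had 0 counts in all libraries. The lower PRKACB level in Tyr19Phe CDK9 cells had an edgeR adjusted p of 0.0676. The type I regulatory subunit PRKAR1A differed by 0.04 with the inhibitor and by -0.09 in Tyr19Phe CDK9 cells, and the type II subunit PRKAR2A by -0.01 and -0.03, none of them called by edgeR.

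Of 9 tested PKA subunits and inhibitors, 1 was called higher and none lower with the inhibitor, and 1 higher and 1 lower in Tyr19Phe CDK9 cells. This is beside 4.55% and 18.0% of all tested genes called in either direction. PKIA, a peptide inhibitor of the catalytic subunits, rose with the ALK inhibitor from 28.1 ± 2.62 to 40.4 ± 2.43 CPM (SD, n = 3 each), a log2 difference of 0.53 (edgeR adjusted p = 0.00032). In Tyr19Phe CDK9 cells PKIA was at 30.9 ± 1.00 CPM and was not called, and it was lower there than with the inhibitor by -0.39 (edgeR adjusted p = 0.0021). PRKAR2B, the regulatory subunit through which type II PKA binds many anchoring proteins, was 56.2 ± 2.58 CPM in WT CDK9 cells and rose to 67.0 ± 2.52 CPM in Tyr19Phe CDK9 cells, a log2 difference of 0.25 (edgeR adjusted p = 0.0144). This call was lost in the edgeR fit without WT CDK9 replicate 2 (0.22, adjusted p = 0.0675) or Tyr19Phe CDK9 replicate 1 (0.23, adjusted p = 0.0655). PRKAR2B was at 48.6 ± 4.04 CPM with the inhibitor, with a log2 difference between Tyr19Phe CDK9 and inhibitor-treated cells of 0.46 (edgeR adjusted p = 1.95e-05). PRKAR1B fell in Tyr19Phe CDK9 cells from 14.4 ± 2.30 to 9.60 ± 0.63 CPM, by 0.58 on the log2 scale (edgeR adjusted p = 0.0053). With the inhibitor it also lay below WT CDK9 cells, by -0.53 to -0.31 over all fits, without a call. Between Tyr19Phe CDK9 and inhibitor-treated cells PRKAR1B differed by -0.26 to -0.10 and was not called in any fit.

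Most of the listed anchoring proteins without an AKAP symbol were called lower in Tyr19Phe CDK9 cells. The list was drawn up with results of these data known, so its counts are a description. Among the genes called lower, MAP2 and EZR kept their call in 4 and 1 of 6 fits with 1 library left out. Of the 14 tested among 17 listed, 9 fell and 1 rose there, where 10.4% of all tested genes were called lower, and their median log2 difference was -0.29, beside 0.00 over all tested genes. With the inhibitor 1 rose and 1 fell, beside 1.82% and 2.73% of all tested genes. NBEA, a scaffold of vesicle trafficking, went from 17.9 ± 3.50 to 10.2 ± 1.14 CPM in Tyr19Phe CDK9 cells, a log2 difference of -0.81 (edgeR adjusted p = 7.8e-05). Its relative LRBA went from 81.9 ± 1.73 to 53.5 ± 5.83 CPM, a log2 difference of -0.62 (edgeR adjusted p = 3.1e-07), but the 35 genes within 5 Mb of LRBA on chromosome 4 had a median of -0.35 in the same comparison. ARFGEF2, an exchange factor for ARF proteins, fell by 0.36 (edgeR adjusted p = 3.5e-05). NF2 (merlin) rose by 0.15 (edgeR adjusted p = 0.0234), beside a median of 0.17 over its 75 neighbours, and the call was lost without WT CDK9 replicate 1 (0.15, adjusted p = 0.0735), WT CDK9 replicate 3 (0.10, adjusted p = 0.178) or Tyr19Phe CDK9 replicate 2 (0.11, adjusted p = 0.133). The part of the chromosomal surroundings in these differences was not tested.

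MAP2, a microtubule protein that binds type II PKA, moved in opposite directions. It was 33.5 ± 3.69 CPM in WT CDK9 cells, rose to 52.8 ± 2.07 CPM with the inhibitor (log2 difference 0.66, edgeR adjusted p = 6.1e-05) and fell to 25.2 ± 4.55 CPM in Tyr19Phe CDK9 cells (-0.41, edgeR adjusted p = 0.0055). The fall was not called without WT CDK9 replicate 3 (-0.31, edgeR adjusted p = 0.067) or Tyr19Phe CDK9 replicate 2 (-0.26, edgeR adjusted p = 0.0872). Set directly against each other, the perturbed groups differed by -1.07 (edgeR adjusted p = 2.3e-09). EZR, or ezrin, which links membranes to actin, fell with the inhibitor by 0.29 on the log2 scale (edgeR adjusted p = 2.2e-08). Of the 8 other listed genes with an AKAP symbol, 5 were tested. By edgeR or DESeq2 0 of them were called in either comparison with WT CDK9, where edgeR called 4.55% and 18.0% of all tested genes. At an unadjusted p under 0.05 there were 0 of the 5 with the inhibitor and 1 in Tyr19Phe CDK9 cells. Between Tyr19Phe CDK9 and inhibitor-treated cells 2 of the 5 were called by edgeR, beside 20.7% of all tested genes. They are named after their values were seen: AKAP7 was lower (-0.60, adjusted p = 0.0342, and 0.0603 by DESeq2) and AKAP17A higher (0.23, adjusted p = 0.0293). The edgeR call of AKAP7 was lost without ALK inhibitor replicate 2 (-0.41, adjusted p = 0.221) or 3 (-0.63, adjusted p = 0.0622) and Tyr19Phe CDK9 replicate 2 (-0.43, adjusted p = 0.192) or 3 (-0.63, adjusted p = 0.0595), and that of AKAP17A without ALK inhibitor replicate 1 (0.20, adjusted p = 0.117), 2 (0.24, adjusted p = 0.0517) or 3 (0.25, adjusted p = 0.0525) and Tyr19Phe CDK9 replicate 2 (0.17, adjusted p = 0.17).

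Upstream of PKA, 2 of the cyclases that make cAMP were lower in Tyr19Phe CDK9 cells. Of 10 tested G proteins and adenylyl cyclases, 1 was called higher and 2 lower there, beside 7.61% and 10.4% of all tested genes. With the inhibitor 1 of the 10 was called, beside 4.55% of all tested genes. In Tyr19Phe CDK9 cells ADCY6 fell by 0.47 (edgeR adjusted p = 8.1e-09) and ADCY9 by 0.40 (edgeR adjusted p = 2.4e-06) on the log2 scale. The inhibitory G protein subunit GNAI2 rose by 0.25 (edgeR adjusted p = 0.00017). GNAI2 also differed by 0.11 to 0.18 with the inhibitor over all fits. It was called there only with library size alone (0.16, edgeR adjusted p = 0.0406) or without ALK inhibitor replicate 3 (0.18, edgeR adjusted p = 0.0428). Between Tyr19Phe CDK9 and inhibitor-treated cells GNAI2 differed by 0.07 to 0.14. That difference was called only with upper quartile scaling or protein-coding genes only. With the inhibitor the stimulatory subunit GNAS rose by 0.11 (edgeR adjusted p = 0.0467), a call that held without WT CDK9 replicate 3 and was lost without WT CDK9 replicate 1 (0.10, adjusted p = 0.236) or 2 (0.12, adjusted p = 0.071) and ALK inhibitor replicate 1 (0.13, adjusted p = 0.0592), 2 (0.13, adjusted p = 0.0766) or 3 (0.09, adjusted p = 0.266).

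Of 9 tested cAMP phosphodiesterases, which degrade the messenger, 0 were called with the inhibitor by edgeR or DESeq2, with 2 at an unadjusted p under 0.05. By edgeR 4.55% of all tested genes were called with the inhibitor. In Tyr19Phe CDK9 cells 4 of 9 were called, beside 18.0% of all tested genes, of which 2 rose, PDE4D by 0.40 (edgeR adjusted p = 0.0351) and PDE10A by 0.36 (edgeR adjusted p = 0.0246), and 2 fell, PDE7A by 0.33 (edgeR adjusted p = 0.0155) and PDE3B by 0.31 (edgeR adjusted p = 0.0224). Each of these 4 calls was lost in the edgeR fit without Tyr19Phe CDK9 replicate 2, with adjusted p-values of 0.131 for PDE4D (0.35), 0.0588 for PDE10A (0.36), 0.107 for PDE7A (-0.27) and 0.105 for PDE3B (-0.27). PDE4D was also lost without WT CDK9 replicate 1 (0.31, adjusted p = 0.191) or 2 (0.43, adjusted p = 0.0559) and Tyr19Phe CDK9 replicate 1 (0.33, adjusted p = 0.159). DESeq2 did not call PDE4D either (0.40, adjusted p = 0.0504). PDE10A was lost without WT CDK9 replicate 2 (0.27, adjusted p = 0.144) and Tyr19Phe CDK9 replicate 1 (0.34, adjusted p = 0.0737), PDE7A without WT CDK9 replicate 1 (-0.31, adjusted p = 0.0754) or 3 (-0.33, adjusted p = 0.0508), and PDE3B without WT CDK9 replicate 1 (-0.29, adjusted p = 0.0971) or 2 (-0.29, adjusted p = 0.0718) and Tyr19Phe CDK9 replicate 3 (-0.31, adjusted p = 0.0566). The rise of PDE4D was not particular to Tyr19Phe CDK9 cells. Apart from the fits with 1 library left out, it differed by 0.42 to 0.48 from WT CDK9 cells with the inhibitor. It was called there only with no filter on low counts (0.43, edgeR adjusted p = 0.0397). Between Tyr19Phe CDK9 and inhibitor-treated cells PDE4D differed by -0.03 to 0.05 in the same fits. With the inhibitor PDE10A (0.17 to 0.20), PDE7A (-0.23 to -0.18) and PDE3B (-0.09 to -0.05) had the same sign in these fits, without a call. None of the 4 was called between Tyr19Phe CDK9 and inhibitor-treated cells in any fit.

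Among 15 other partners of the scaffolds, 2 rose and 1 fell with the inhibitor, and 2 rose and 4 fell in Tyr19Phe CDK9 cells, beside 4.55% and 18.0% of all tested genes called in either direction. PRKCA, a protein kinase C that AKAP12 holds, fell in Tyr19Phe CDK9 cells by 0.32 (edgeR adjusted p = 1.4e-05). PPP3CA, the calcineurin catalytic subunit, differed by -0.39 (edgeR adjusted p = 7.1e-05) beside a median of -0.21 over its 37 neighbours on chromosome 4. CCND1, the cyclin D1 that gravin is known to bind, rose by 0.32 (edgeR adjusted p = 1.3e-07). The phosphatase subunit PPP1CB rose by 0.18 with the inhibitor (edgeR adjusted p = 0.0055, and 0.0567 at 0.17 without WT CDK9 replicate 1) and fell by 0.18 in Tyr19Phe CDK9 cells (edgeR adjusted p = 0.0023).

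Downstream of PKA, genes were called in both directions, in Tyr19Phe CDK9 cells and not with the inhibitor. Between Tyr19Phe CDK9 and inhibitor-treated cells, 2 of the 13 tested genes were called higher and 4 lower by edgeR. This is beside 9.57% and 11.1% of all tested genes. The median log2 difference of the 13 in that comparison was -0.12. Of 13 tested CREB factors and cAMP target genes, 0 were called with the inhibitor by edgeR or DESeq2, with 1 at an unadjusted p under 0.05. By edgeR 4.55% of all tested genes were called with the inhibitor. In Tyr19Phe CDK9 cells 2 rose and 2 fell, beside 7.61% and 10.4% of all tested genes, and the median log2 difference of the 13 was -0.20, beside 0.00 over all tested genes. The CREB coactivator CRTC2 rose by 0.31 (edgeR adjusted p = 0.0053) while its relative CRTC3 fell by 0.30 (edgeR adjusted p = 0.0024), and of the early response targets DUSP1 rose by 0.32 (edgeR adjusted p = 0.002) and NR4A1 fell by 0.81 (edgeR adjusted p = 0.0032) on the log2 scale. Over all 7 pathway lists, 75 of 90 genes were tested, of which 5 rose and 2 fell with the inhibitor, where 1.82% of all tested genes were called higher and 2.73% lower. In Tyr19Phe CDK9 cells 9 rose and 20 fell, where 7.61% of all tested genes were called higher and 10.4% lower. Their median log2 difference was 0.00 and -0.09 in these comparisons. The lists were drawn up with results of these data known and have no test of their own.

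**Figure D4:**
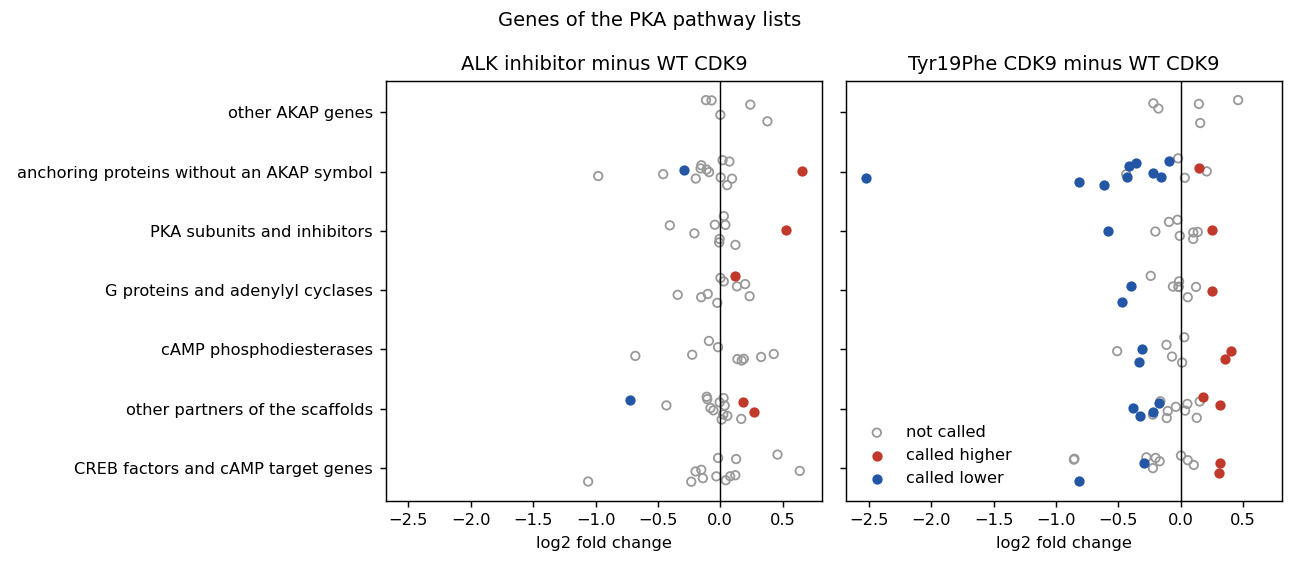
Fitted log2 fold change from WT CDK9 cells of the 75 tested genes in the 7 PKA pathway lists, 1 point per gene and 1 row per list (points are spread vertically for legibility), for the ALK inhibitor (left) and Tyr19Phe CDK9 (right). Filled points passed edgeR's test at an adjusted p under 0.05, with 5 higher and 2 lower on the left and 9 higher and 20 lower on the right.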

How the data were processed

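RNA-seq was done on total RNA of SKOV3 cells. The authors deposited a table of raw counts per gene for the 9 libraries, with gene symbols, positions and lengths. Per the submitters' processing notes, reads were aligned to GRCh38 (hg38) with HISAT2 2.0.5 and counted with featureCounts 1.5.0-p3. The annotation release and the strand setting are not given in the sources used here, so reads of genes that overlap on opposite strands could be counted to either.

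Samples were grouped by their labels. Genes were kept with filterByExpr (minimum count 10, minimum total 15), and edgeR 4.0.16 was fitted to the 9 libraries together with group as the only term (TMM scaling, quasi-likelihood test, 6 residual degrees of freedom, R 4.3.3). P-values were adjusted by Benjamini-Hochberg over all 16350 tested genes in each comparison, and genes under 0.05 were called. DESeq2 1.42.0, which the study used, was run as an alternative. The fold changes are fitted values, and CPM uses TMM-scaled library sizes. Log2 CPM for correlations used a prior count of 2. The fitting script was first tested on simulated data. The replicates of a group had Pearson correlations of log2 CPM between 0.975 and 0.986, and no pair was as alike as counting error alone would give.

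The members and the pathway lists were chosen with earlier results of these data known. Named genes were all 8 members, all PKA subunits, up to 3 called genes per list, direction and comparison with WT CDK9 with the smallest adjusted p, and the 5 genes most correlated with AKAP12. Some genes that this rule names are not reported here, though the counts include them. Gene neighbours were tested genes starting within 5 Mb. Promoter sequences are RefSeq's and transcript positions GENCODE's, both on GRCh38. Other scalings, no filter, protein-coding genes only, the compared groups alone, a replicate block and leaving out each library were tried.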

Additional observations from a re-analysis of the deposited data

How the results depend on the processing

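The direction of every AKAP12 difference held under all alternatives, and no called difference changed sign. Uncalled differences near 0 did, such as AKAP2 with the inhibitor, which went from -0.17 to 0.44 without WT CDK9 replicate 1, AKAP10 with the inhibitor, up to 0.058, and AKAP9 with the inhibitor, down to -0.02. When 1 library was left out, the AKAP12 difference from WT CDK9 cells ranged from 0.48 to 0.54 under inhibitor treatment and from 0.36 to 0.41 in Tyr19Phe CDK9 cells. Between Tyr19Phe CDK9 and inhibitor-treated cells it lay between -0.15 and -0.093, and its edgeR call held in 1 of these 6 fits. That call was also lost with upper quartile scaling (-0.12, edgeR adjusted p = 0.0628), with no filter on low counts (-0.12, edgeR adjusted p = 0.0791) and without both libraries that stood apart, ALK inhibitor replicate 2 and Tyr19Phe CDK9 replicate 3, an alternative chosen after seeing the data (-0.15, edgeR adjusted p = 0.072). Under each of these 3 settings 1 member, AKAP11, was called in that comparison in place of 2. The cause was not tested. With 1 library left out, 0 members other than AKAP12 were called with the inhibitor, 0 to 1 in Tyr19Phe CDK9 cells and 1 to 2 in the direct comparison. The pathway genes called numbered 5 to 8, 20 to 26 and 24 to 29, against 7, 29 and 32 with all libraries. Without both libraries that stood apart they numbered 6, 26 and 22. Libraries of the same replicate number did not deviate together (correlations between -0.01 and 0.03). These values gave no sign of pairing, but cannot show that the samples were not prepared as pairs. With the number as a replicate block, AKAP12 differed by -0.13 in the direct comparison (edgeR adjusted p = 0.032), AKAP11 by -0.26 from WT CDK9 in Tyr19Phe CDK9 cells (edgeR adjusted p = 0.0059), and NF2 became called with the inhibitor (-0.15, edgeR adjusted p = 0.03). The EZR call in Tyr19Phe CDK9 cells (-0.09, edgeR adjusted p = 0.0324) was lost with library size alone (-0.06, edgeR adjusted p = 0.14) and in 5 of 6 fits with 1 library left out (edgeR adjusted p between 0.0122 and 0.183 over the 6). The edgeR call of EZR was also lost with upper quartile scaling (adjusted p = 0.112), no filter on low counts (0.0918) and protein-coding genes only (0.0601). So it was with the compared groups alone (0.0546) and without both libraries that stood apart (0.125). It held in the other alternatives. Of 1754 values of named genes other than AKAP12 under the alternatives, 1678 kept their side of the threshold, of which 49 uncalled ones changed sign, 64 lost a call and 12 gained one. AKAP2 had only 6 to 55 counts per library, which are uncertain because its span lies in the read-through gene PALM2-AKAP2. The cause of its low counts was not tested.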

Other observations

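In the direct comparison, 8 of the 75 tested pathway genes were higher in Tyr19Phe CDK9 cells than with the inhibitor and 24 were lower by edgeR, beside 9.57% and 11.1% of all tested genes. The median log2 difference of the pathway genes was -0.08, and 0.00 over all tested genes. The catalytic subunit PRKACB was lower in Tyr19Phe CDK9 cells by -0.23 (edgeR adjusted p = 0.0311), a call lost without ALK inhibitor replicate 2 (-0.17, adjusted p = 0.174) and without Tyr19Phe CDK9 replicate 1 (-0.22, adjusted p = 0.0902), 2 (-0.23, adjusted p = 0.0817) or 3 (-0.24, adjusted p = 0.0544). The regulatory subunit PRKAR1A was lower by -0.13 (edgeR adjusted p = 0.0151), a call lost without ALK inhibitor replicate 1 (-0.11, adjusted p = 0.0928) or Tyr19Phe CDK9 replicate 1 (-0.12, adjusted p = 0.067). Of the 9 phosphodiesterases, 0 were called in this comparison by edgeR or DESeq2, with 2 at an unadjusted p under 0.05.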
